A study of Mus musculus with 8 samples.

Results

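This account concerns 9 genes of interferon signaling and its transcription factors, Ifngr1, Jak2, Stat2, Irf9, Irf7, Irf1, Irf8, Batf2 and Socs1, in the livers of mice with and without deletion of Smo in hepatocytes. They were taken by symbol from a table of 25239 gene symbols. They were selected on their read counts in these same livers, with the difference between Smo-KO and control already seen, so their values in that contrast are given as a description, without tests. All 9 were among the 12977 genes with enough reads to be fitted.

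The study asked how loss of Hedgehog signaling in hepatocytes alters a liver with metabolic dysfunction-associated steatohepatitis. Every animal was an adult male carrying floxed alleles of Smo (Smo flox/flox) on a C57Bl6/J background. Each was fed a choline-deficient, L-amino acid-defined, high-fat diet (CDA-HFD) for 6 weeks and received an AAV8 vector by tail vein during the final week. The 4 control mice (Smo-Luc) received AAV8-TBG-Luciferase and the 4 Smo-KO mice (Smo-Cre) AAV8-TBG-Cre Recombinase, so floxed alleles, diet and viral vector were common to both groups. The TBG promoter is active in hepatocytes, and Smo in the other cells of the liver was not targeted. RNA came from whole liver, 1 library per mouse, with 8203299 to 9999732 reads on genes per library. Smo-KO 3 had the fewest reads. Levels are given as counts scaled to library size (counts per 1000000 reads, CPM) after TMM scaling, in the order of mouse 1 to mouse 4, and 3 reads corresponded to 0.297 to 0.366 CPM.

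Interferons are secreted proteins of antiviral and antimicrobial defense. Type I interferons act through IFNAR1 and IFNAR2 with the kinases TYK2 and JAK1, and phosphorylated STAT proteins, STAT2 among them, join IRF9 to form ISGF3, which binds the interferon-stimulated response element (ISRE). Interferon gamma, made mainly by T and natural killer (NK) cells, acts through IFNGR1 and IFNGR2 with JAK1 and JAK2, and STAT dimers then bind the gamma-activated site (GAS). Among the genes induced are further transcription factors of the IRF family and SOCS1, which inhibits the kinases and so limits the response.

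Smo was measured first as a check of the labels. Its level was 8.17, 8.49, 8.75 and 8.21 CPM in the control livers and 5.67, 3.93, 4.27 and 4.37 CPM in the Smo-KO livers. The groups did not overlap, and the Smo-KO mean was 54.3% of the control mean (two-sided exact permutation test, p = 0.0286, the smallest p that 4 against 4 mice allow). In the fit across all genes the log2 fold change was -0.88 (SE 0.16) with an adjusted p of 0.0957 by edgeR's quasi-likelihood test with Benjamini-Hochberg adjustment, and DESeq2 gave 0.00613. The liver label was checked against 8 hepatocyte markers, all of which were detected in the libraries. Their summed level was 30299.6 CPM in control and 29717.5 CPM in Smo-KO livers, with albumin (Alb) the most abundant.

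Of the 9 interferon signaling genes, Irf1, Batf2 and Socs1 had the lowest Smo-KO levels relative to control, at 71.4%, 47.8% and 41.8% of the control mean. The receptor chain Ifngr1, the kinase Jak2 and Stat2 averaged 105%, 96.9% and 96.4% of control, and Irf9, Irf7 and Irf8 lay at 87.4%, 90.6% and 92.0%. Lower means in Smo-KO were found for 8 of the 9 genes, against 50.1% of all genes tested. The groups did not overlap for 2 of 9 genes, Irf1 and Batf2, against 7.37% of all genes tested (4.34% with Smo-KO lower and 3.03% with Smo-KO higher). These counts describe how the genes were picked and nothing is read from them.

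**Figure D1:**
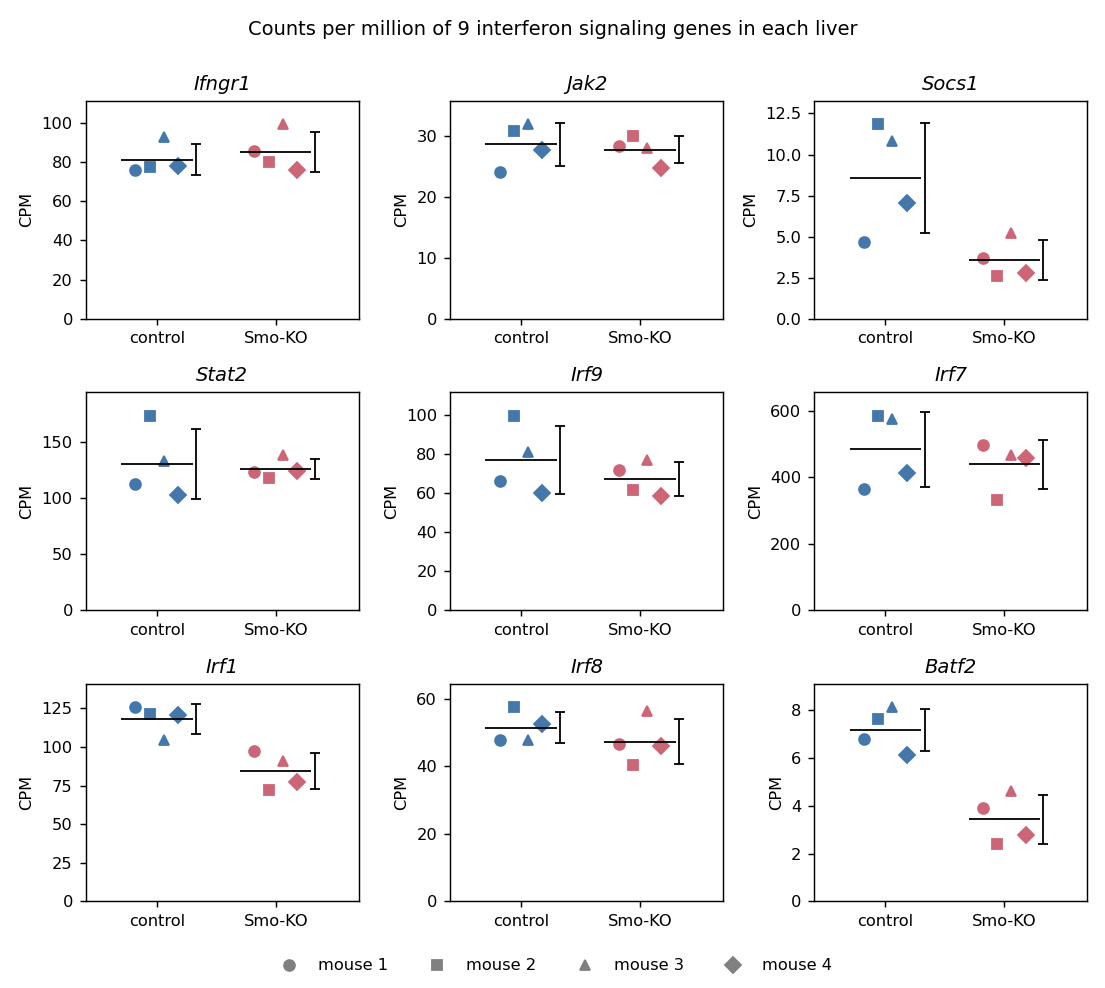
Level of each of the 9 genes in CPM (vertical axes start at 0) in the 4 control and 4 Smo-KO livers. Each symbol is 1 mouse, horizontal lines are group means and bars span 1 SD on either side. The groups separate for Irf1 and Batf2, nearly so for Socs1, and overlap for the other 6 genes.

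Ifngr1 (chr10:19591949-19610229, plus strand, GRCm38) encodes the ligand-binding chain of the interferon gamma receptor. Its level was 76.2, 77.8, 93.1 and 77.9 CPM in control livers and 85.6, 80.4, 99.5 and 75.9 CPM in Smo-KO livers. The ranges overlapped, with mouse 3 highest in each group. The means were 81.3 ± 7.94 and 85.3 ± 10.2 CPM (SD, with 4 mice in each group), and the log2 fold change was 0.07 (SE 0.11). The value was -0.01 without Smo-KO 3 and 0.15 without control 3.

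Jak2 (chr19:29251828-29313080, plus strand) encodes a kinase that serves the interferon gamma receptor and also the receptors of growth hormone and of several cytokines. Control livers held 24.0, 30.8, 31.9 and 27.7 CPM and Smo-KO livers 28.3, 30.0, 28.1 and 24.6 CPM. All 4 Smo-KO values lay within the control range. The means of 28.6 ± 3.53 and 27.7 ± 2.25 CPM gave a log2 fold change of -0.05 (SE 0.11), which became 0.01 without control 3 or without Smo-KO 4 and -0.12 without control 1.

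Stat2 (chr10:128270559-128292849, plus strand) and Irf9 (chr14:55603571-55610030, plus strand) encode subunits of ISGF3. Stat2 stood at 113, 174, 133 and 103 CPM in control livers and 123, 118, 139 and 125 CPM in Smo-KO livers. The Smo-KO livers lay close together, inside a control range that control 2 stretched upward. The means were 131 ± 31.4 and 126 ± 9.04 CPM, with a log2 fold change of -0.05 (SE 0.14) that became 0.12 without control 2 and -0.15 without control 4. Irf9 was at 66.5, 99.8, 81.2 and 60.2 CPM in control livers and 72.0, 61.5, 77.2 and 58.3 CPM in Smo-KO livers. Control 2 was again the highest, and all but Smo-KO 4 fell within the control range. Its means were 76.9 ± 17.6 and 67.3 ± 8.83 CPM (log2 fold change -0.19, SE 0.15), and the value was -0.04 without control 2 and -0.29 without control 4. Exons of Irf9 share 123 bases with Rnf31 on the same strand, 2.28% of its exonic length.

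Irf7 (chr7:141262706-141266481, minus strand) encodes a factor that is induced by ISGF3 and drives further type I interferon transcription. It was measured at 364, 587, 575 and 413 CPM in control livers and 498, 333, 468 and 457 CPM in Smo-KO livers. Controls 2 and 3 exceeded every Smo-KO liver, while controls 1 and 4 did not. The means of 485 ± 113 and 439 ± 72.8 CPM corresponded to a log2 fold change of -0.14 (SE 0.16), and single left-out livers moved it between -0.26 (control 1) and -0.03 (Smo-KO 2), with -0.04 without control 2 and -0.21 without control 4.

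Irf1 (chr11:53770014-53778374, plus strand) encodes a factor induced by interferon gamma that activates genes of antigen presentation. Its level was 126, 122, 105 and 121 CPM in control livers and 97.1, 72.2, 90.7 and 77.4 CPM in Smo-KO livers. Every Smo-KO liver was below every control liver. The means were 118 ± 9.39 and 84.4 ± 11.5 CPM, the log2 fold change was -0.49 (SE 0.11), and it ranged from -0.55 to -0.42 over the alternatives tried. Its ratio to Irf2, a relative that competes for the same DNA element, was 1.78, 1.81, 1.869 and 1.906 in control livers and 1.404, 1.075, 1.525 and 1.306 in Smo-KO livers. These ratios did not overlap. Irf2 itself averaged 64.3 CPM in control and 63.8 CPM in Smo-KO livers, so the ratio restates the level of Irf1.

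Irf8 (chr8:120736358-120756694, plus strand) encodes a factor of macrophages, dendritic cells and B cells that partners with other IRF and BATF proteins. It stood at 47.9, 57.7, 47.9 and 52.5 CPM in control livers and 46.6, 40.6, 56.3 and 46.0 CPM in Smo-KO livers. Smo-KO livers 1, 2 and 4 were below every control liver, and Smo-KO 3 was near the top of the control range. The means were 51.5 ± 4.67 and 47.4 ± 6.57 CPM (log2 fold change -0.12, SE 0.11). The value was -0.05 without Smo-KO 2, -0.06 without control 2 and -0.21 without Smo-KO 3. Beside it, 14 Kupffer cell and macrophage markers summed to 2514 ± 308 CPM in control and 2634 ± 307 CPM in Smo-KO livers, with Cd5l the most abundant and none at 0. Of these 14, 9 had higher and 5 lower means, with a median log2 fold change of 0.13. At an unadjusted p under 0.05, 2 of them were higher, beside 6.7% of all genes, and DESeq2 called 1 higher after adjustment. The sum of 10 dendritic cell markers was 740 ± 18.2 and 717 ± 31.3 CPM, and none was at 0. Bst2, which is also an interferon response gene, made up 94.4% of it. Of these 10 markers, 3 had higher and 7 lower means, with a median log2 fold change of -0.08. At an unadjusted p under 0.05, 2 of the 10 were lower, beside 7.15% of all genes, and none was higher. The sum of 7 B lymphocyte and plasma cell markers was 23.4 ± 11.9 and 13.6 ± 2.77 CPM, with none at 0. Jchain, the most abundant, went from 11.6 to 2.66 CPM between the group means and made up most of that difference, while of the 6 markers tested 3 had higher and 3 lower means, with a median log2 fold change of -0.02. The part of these cells in the Irf8 level was not tested.

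Batf2 (chr19:6140983-6172476, plus strand) encodes a leucine zipper factor that is induced by interferon gamma and pairs with IRF1 in activated macrophages. It was scarce, at 6.81, 7.65, 8.15 and 6.13 CPM in control livers and 3.92, 2.40, 4.63 and 2.77 CPM in Smo-KO livers. These levels rested on 60 to 82 reads per control library and 22 to 38 reads per Smo-KO library. The groups did not overlap, and the lowest control liver stood above the highest Smo-KO liver. The means were 7.19 ± 0.895 and 3.43 ± 1.03 CPM, with a log2 fold change of -1.07 (SE 0.21) that ranged from -1.24 to -0.93 over the alternatives.

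Socs1 (chr16:10782240-10785536, minus strand) encodes the feedback inhibitor of the pathway. Its level was 4.65, 11.9, 10.8 and 7.02 CPM in control livers and 3.71, 2.62, 5.24 and 2.77 CPM in Smo-KO livers, from 41 to 113 and 24 to 43 reads. Control 1 lay below Smo-KO 3, and that pair alone kept the groups from separating. The means of 8.59 ± 3.35 and 3.59 ± 1.21 CPM gave a log2 fold change of -1.27 (SE 0.30), between -1.50 and -1.08 over the alternatives.

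The median log2 fold change of the 9 genes was -0.14, against -0.0008 over all genes tested. It ranged from -0.26 to -0.04 over the alternatives, and the value nearest 0 was the one without control 2. The kit does not mark the strand of a transcript, and reads in exons shared with a gene on the opposite strand cannot be told apart. Such exons made up 3.4% of Irf1 (shared with Gm17334), 1.19% of Irf7 (Phrf1) and 2.02% of Batf2 (Arl2).

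Per kilobase of exon, Irf7 was the most abundant of the genes in control livers at 128 ± 29.9 CPM per kb. Irf1 (29.7 ± 2.36 CPM per kb), Ifngr1 (28.5 ± 2.79 CPM per kb), Stat2 (22.1 ± 5.30 CPM per kb) and Irf9 (14.3 ± 3.27 CPM per kb) followed, each with a range that overlapped that of its neighbor. Irf8 (7.30 ± 0.661 CPM per kb) and Jak2 (5.69 ± 0.702 CPM per kb) came next without overlap. Socs1 (2.95 ± 1.15 CPM per kb) and Batf2 (2.85 ± 0.355 CPM per kb) were lowest and overlapped. In Smo-KO livers Irf1 was at 21.2 ± 2.90 CPM per kb, behind Ifngr1 at 30.0 ± 3.60 and beside Stat2 at 21.3 ± 1.53 CPM per kb, with which its range overlapped.

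Within groups, the correlation of log2 CPM between 2 genes, taken on deviations from the group means of 8 livers, was positive for 35 of 36 pairs, with a median r of 0.563. Over all pairs of the 12977 genes tested, 49.9% were positive and the median r was -0.000698. Among the 9 genes it was highest for the ISGF3 partners Stat2 and Irf9 (r = 0.924), followed by Irf7 and Socs1 (r = 0.846), and lowest for Irf1 and Jak2 (r = -0.297). All pairs share the same libraries and their scaling. Control 2 was the highest control liver for Stat2, Irf9, Irf7, Irf8 and Socs1, and control 1 the lowest for Irf7, Irf8, Socs1, Ifngr1 and Jak2. Smo-KO 3 was the highest Smo-KO liver for 6 of the 9 genes, and Smo-KO 2 the lowest for 6.

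**Figure D2:**
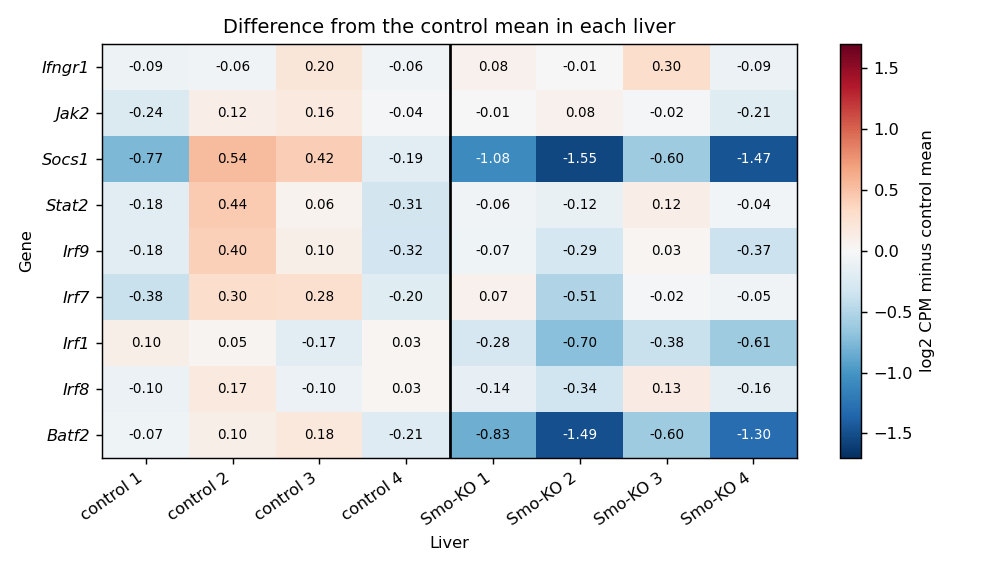
Difference in log2 CPM from the control mean for each of the 9 genes (rows) in each of the 8 livers (columns), with red above and blue below the control mean. Irf1, Batf2 and Socs1 lie below the control mean in all 4 Smo-KO livers, and control 2 is above it for all genes except Ifngr1.

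The promoter windows of these genes were searched for the DNA elements named above, to show where STAT and IRF proteins could bind. RefSeq windows on GRCm38.p6, from 250 bases before to 50 bases after the start of transcription, were matched for 8 of the 9 genes. A pair of GAAA runs with any 2 bases between them, on either strand, stood for the ISRE and TTCNNNGAA, which reads the same on both strands, for the GAS. The ISRE letters occur in the window of 3.99% and the GAS letters in that of 9.55% of 27025 genes. Each stretch below runs 5′ to 3′ on the strand of its gene, with 12 bases on either side of the matches in lower case and the matched letters in capitals. Position -1 is the base before the start.

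In Stat2 the ISRE letters lie at -222 to -213 (stretch chr10:128270264-128270297, plus strand), and in Socs1 there are 2 overlapping matches at -83 to -74 and -77 to -68 (chr16:10785592-10785631, minus strand). In Irf1 the GAS letters lie at -90 to -82 (chr11:53769912-53769944, plus strand), and in Irf8 there are 2 matches at -171 to -163 and -153 to -145 (chr8:120736175-120736225, plus strand).
Stat2: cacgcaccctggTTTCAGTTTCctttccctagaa
Socs1: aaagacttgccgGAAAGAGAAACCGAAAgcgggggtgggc
Irf1: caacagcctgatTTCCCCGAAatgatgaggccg
Irf8: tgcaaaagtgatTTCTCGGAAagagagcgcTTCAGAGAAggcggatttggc
The windows of Irf7, Irf9, Ifngr1 and Jak2 do not hold these letters, which says nothing about other forms of the elements or other positions. Genes with the same letters did not share a level relative to control. Stat2 was at 96.4% and Socs1 at 41.8% with the ISRE letters, and Irf1 was at 71.4% and Irf8 at 92.0% with the GAS letters.

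**Figure D3:**
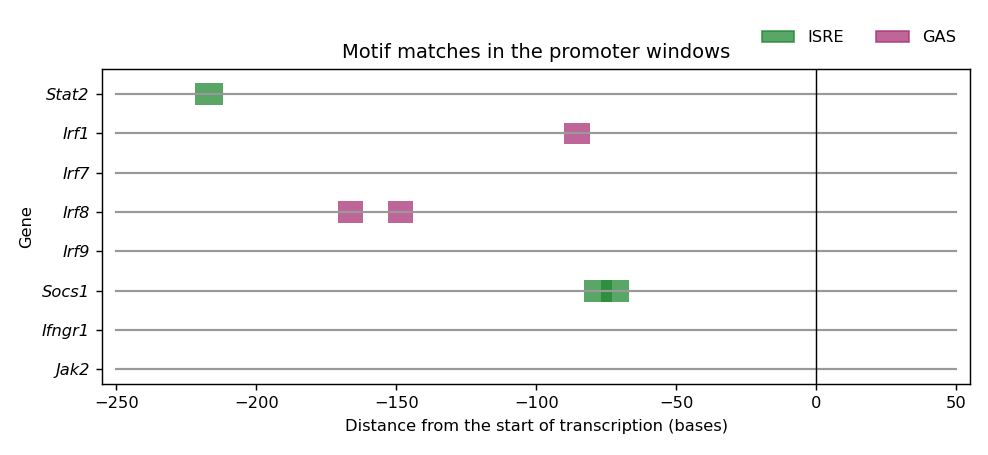
Position of ISRE (green) and GAS (purple) letter matches in the promoter window of 8 of the 9 genes, in bases from the start of transcription. Matches are present in Stat2, Irf1, Irf8 and Socs1, and the 2 matches in Socs1 overlap.

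Genes of the pathway other than these 9 were compared from lists. In edgeR's quasi-likelihood fit across all genes, no gene out of 12977 reached a Benjamini-Hochberg adjusted p of 0.05 (0% called), 1797 (13.8%) passed an unadjusted threshold of 0.05, and DESeq2 called 163 (1.26%). At an unadjusted p under 0.05, 7.15% of all genes were lower and 6.7% were higher in Smo-KO livers. The lists below are set beside these shares, and their genes that pass only the unadjusted threshold are described as lower or higher at that threshold.

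The interferons themselves were near or below detection. None of the 21 interferon genes listed passed the filter on low counts. Ifng had 1, 0, 6 and 5 reads in control livers and 0, 0, 4 and 2 reads in Smo-KO livers, and Ifnb1 had 0, 5, 2 and 1 reads and 0, 0, 4 and 0 reads. A difference in ligand RNA was not detectable at this depth.

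The 5 other receptor chains of the family (Ifnar1, Ifnar2, Ifngr2, Ifnlr1 and Il10rb) all had higher means in Smo-KO livers, and none passed an unadjusted p of 0.05 with all livers. Ifnar1, a chain of the type I receptor, averaged 80.5 and 90.4 CPM (log2 fold change 0.17, SE 0.09) and passed that threshold without Smo-KO 1 (0.21), and Ifngr2, the partner of Ifngr1, 55.9 and 62.6 CPM (0.16, SE 0.16). The log2 fold change of Ifngr2 was 0.03 without control 1 and 0.29 without control 3. Of the other Janus kinases, Jak1 had a log2 fold change of -0.12 and Tyk2 of -0.01, and none of the 3 passed the unadjusted threshold with all livers. Jak1 passed it without control 1 (-0.19) and was at -0.07 without control 3.

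Of 5 STAT factors listed beside Stat2 (Stat3, Stat4, Stat5a, Stat5b and Stat6), 2 had higher and 3 lower means, with a median log2 fold change of -0.05 (-0.09 to 0.01 over the alternatives). Stat4, which signals downstream of interleukin 12 in T and NK cells, was lower at the unadjusted threshold only (2.00 and 1.09 CPM, log2 fold change -0.87, SE 0.35). That p exceeded 0.05 when control 2, control 4, Smo-KO 1, Smo-KO 2 or Smo-KO 3 was left out, with log2 fold changes of -0.69, -0.83, -0.79, -0.73 and -0.82. Of the 7 other IRF and BATF factors, which include Irf3 (-0.03), Irf5 (0.03), Irf4 (-0.47), Batf (-0.22) and Batf3, 6 had lower means and none passed the unadjusted threshold.

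**Figure D4:**
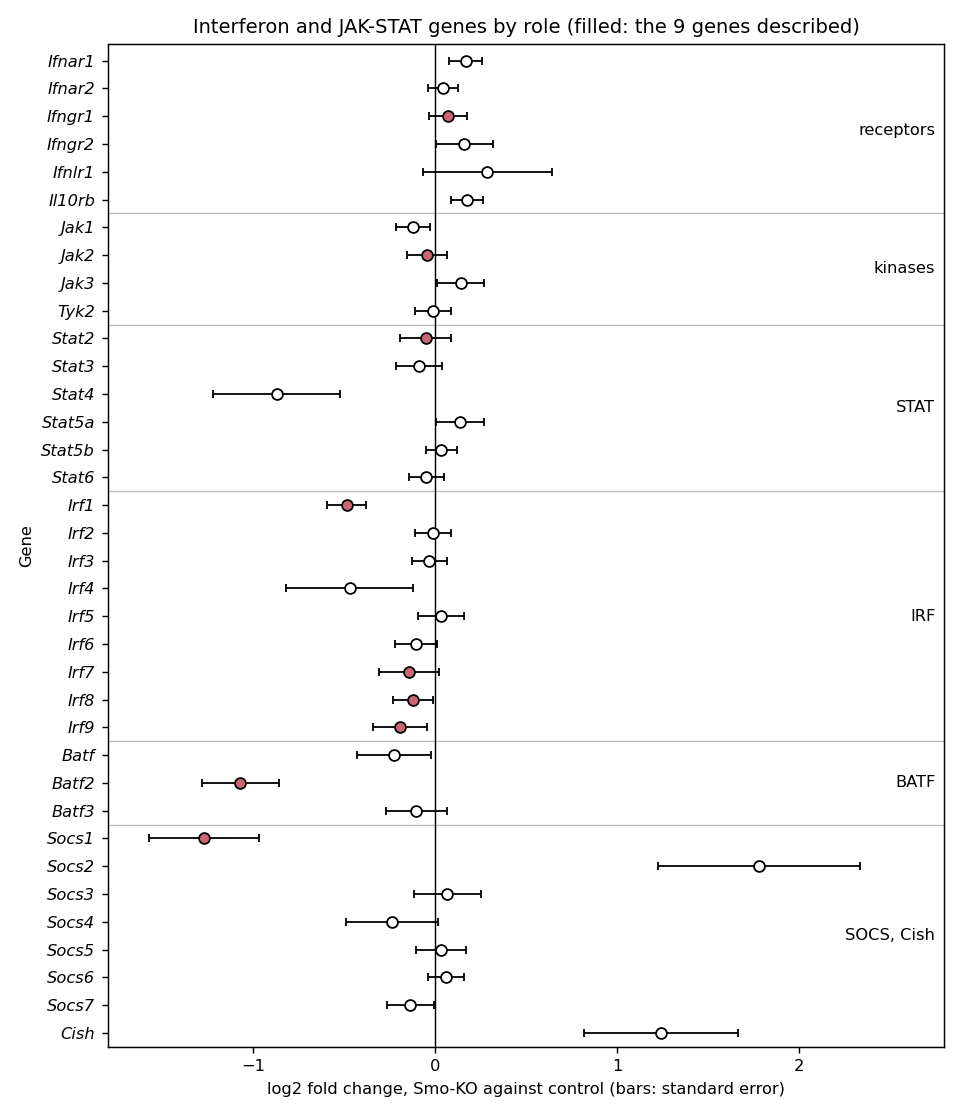
Log2 fold change of Smo-KO against control livers (points) with its standard error (bars) for receptors, kinases, STAT, IRF, BATF and SOCS genes, from the fit across all genes. Filled points are the 9 genes described. Batf2 and Socs1 have values of -1.07 and -1.27, while receptors and kinases other than Ifnlr1 lie between -0.12 and 0.17.

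Of 19 genes listed as inhibitors of JAK-STAT signaling beside Socs1, 8 had higher and 11 lower means. Their median log2 fold change was -0.02 (-0.08 to 0.01 over the alternatives). The 19 also take in Irf2bp1, Irf2bp2 and Irf2bpl, which belong to a family of IRF2 partners rather than of JAK-STAT inhibitors. Socs2 and Cish, which are induced by STAT5 and damp growth hormone and cytokine receptors, were higher at the unadjusted threshold. Socs2 stood at 6.01, 5.77, 11.6 and 7.72 CPM in control livers and 12.4, 13.7, 71.6 and 11.0 CPM in Smo-KO livers, a log2 fold change of 1.78 (SE 0.56) that was 0.66 without Smo-KO 3. Cish stood at 12.8, 22.1, 24.2 and 9.89 CPM and at 11.0, 36.0, 70.1 and 46.9 CPM (1.24, SE 0.42), with a value of 0.86 and an unadjusted p above 0.05 without Smo-KO 3. Without Smo-KO 1 the value of Cish was 1.57, with an edgeR quasi-likelihood adjusted p (Benjamini-Hochberg) of 0.0421. Smo-KO 3 was the highest liver for both. Socs3, the inhibitor of interleukin 6 signaling, averaged 29.3 and 30.7 CPM. The phosphatases Ptpn1 (-0.22) and Ptpn2 (-0.23), which remove phosphate from Janus kinases and STATs, and the IRF2 partner Irf2bp2 (-0.30) were lower at the unadjusted threshold. Ptpn1 lost that call without control 2 (-0.20), control 4 (-0.21), Smo-KO 3 (-0.21) or Smo-KO 4 (-0.17). Ptpn2 lost it without any single liver other than control 3 and Smo-KO 3 (-0.25 to -0.18), and Irf2bp2 without control 1 (-0.25), control 2 (-0.21), Smo-KO 3 (-0.23) or Smo-KO 4 (-0.24). By DESeq2 the unadjusted p of Ptpn2 was 0.0652, and with RLE size factors that of Irf2bp2 was 0.0516.

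Of 27 genes tested that respond to interferon gamma, 25 had lower means and 18 (66.7%) were lower at an unadjusted p under 0.05, beside 7.15% of all genes, with a median log2 fold change of -0.47. None was higher at that threshold, and none reached an adjusted p of 0.05 in the edgeR quasi-likelihood test (Benjamini-Hochberg, lowest 0.116). DESeq2, which gave Nos2 no adjusted p, called 4, namely Cxcl9, Ciita, Cd274 and Tapbp, beside 0.647% of all genes called lower. The number lower at the unadjusted threshold was between 14 and 21 over the alternatives. The list was chosen with earlier results of these data known and is not independent evidence of its direction.

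Cxcl9, a chemokine that draws T cells, was at 87.8, 123, 174 and 171 CPM in control livers and 40.3, 32.4, 90.3 and 28.1 CPM in Smo-KO livers. It fell by 1.55 on the log2 scale (SE 0.32, DESeq2 adjusted p = 0.0433), with Smo-KO 3 just above control 1. Ciita, the master regulator of MHC class II genes, was at 11.3, 16.6, 18.7 and 16.0 CPM in control livers and 9.18, 8.40, 10.4 and 5.97 CPM in Smo-KO livers, without overlap. It fell by 0.89 (SE 0.19, DESeq2 adjusted p = 0.00536). Cd274, which encodes the checkpoint ligand PD-L1, was at 17.6, 19.4, 22.4 and 20.3 CPM and at 16.0, 8.73, 14.9 and 10.6 CPM, again without overlap (-0.67, SE 0.17, DESeq2 adjusted p = 0.0364).

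Tapbp, which helps to load peptides on MHC class I, was at 350.1, 374.5, 364.9 and 371.9 CPM and at 316, 301, 298 and 269 CPM, without overlap (-0.30, SE 0.08, DESeq2 adjusted p = 0.0370).

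The immunity-related GTPases Igtp (-1.11, SE 0.23) and Tgtp1 (-1.28, SE 0.30), the chemokine Cxcl10 (-1.17, SE 0.29) and the peptide transporter Tap1 (-0.47, SE 0.14) were lower at the unadjusted threshold. With all livers, the filter on low counts and no block, edgeR did not call them after adjustment, nor did DESeq2. Under a replicate block, edgeR's quasi-likelihood test gave Benjamini-Hochberg adjusted p-values of 0.0243 for Igtp and 0.0457 for Tgtp1. With no filter on low counts they were 0.0227 for Igtp, 0.0388 for Tgtp1, 0.0442 for Cxcl10, 0.0203 for Cxcl9 and 0.0388 for Ciita, and without Smo-KO 3 they were 0.0201 for Igtp and 0.0111 for Cxcl9. Iigp1, a GTPase of the same family as Igtp, averaged 503 ± 144 and 454 ± 115 CPM (-0.15, SE 0.21), with values from 0.01 without control 2 to -0.32 without Smo-KO 3. B2m, the light chain of MHC class I, averaged 2024 ± 64.6 and 2143 ± 238 CPM (0.08, SE 0.10), with values from 0.02 without Smo-KO 3 to 0.15 without Smo-KO 1. In this list the ISRE letters were present in the promoter window of 11 of 19 genes with a window (57.9%) and the GAS letters in 6 (31.6%).

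Of 30 genes of the type I interferon response tested, 28 had lower means in Smo-KO livers, but 4 (13.3%) were lower at an unadjusted p under 0.05 (Isg15, Isg20, Oasl1 and Cmpk2), none was higher, and DESeq2 called 0. The median log2 fold change was -0.35. Both values depended on single livers. The median was -0.13 without control 2, -0.22 without control 3, -0.54 without control 1 and -0.53 without control 4. The count was 16 without control 1, 12 without control 4 and 13 without Smo-KO 3, and it was 1 without control 2, control 3, Smo-KO 2 or Smo-KO 4. Ifit1, an antiviral RNA-binding protein, was at 29.2, 147, 103 and 31.4 CPM in control livers and 36.6, 33.1, 82.4 and 38.9 CPM in Smo-KO livers. Controls 2 and 3 were high and controls 1 and 4 were not. Its log2 fold change was -0.70 (SE 0.46, unadjusted p above 0.05 with all livers), and it ran from -0.19 without control 2 to -1.10 without Smo-KO 3. Ifit1 passed the unadjusted threshold without control 1 (-0.98), control 4 (-0.96) or Smo-KO 3. Isg15, a ubiquitin-like modifier, had the same pattern, at 82.1, 199, 160 and 75.9 CPM in control livers and 94.6, 59.1, 95.3 and 72.6 CPM in Smo-KO livers. Its log2 fold change was -0.68 (SE 0.27). The unadjusted call of Isg15 was lost without control 2 (-0.40), control 3 (-0.56), Smo-KO 2 (-0.56) or Smo-KO 4 (-0.64) and by DESeq2. Oas2, which senses double-stranded RNA, had a higher mean in Smo-KO livers (41.2 ± 14.2 and 50.7 ± 12.5 CPM, 0.30, SE 0.23). Its log2 fold change lay between 0.16 without control 4 and 0.51 without control 2, and without control 2 it was higher at the unadjusted threshold. The ISRE letters were found in 9 of 22 windows of this list (40.9%) and the GAS letters in 6 (27.3%).

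The 4 control livers thus differed among themselves in interferon response genes. The mean difference of the 30 type I genes from the control mean was -0.57, 0.63, 0.39 and -0.46 (log2) in control livers 1 to 4, and -0.27, -0.53, 0.07 and -0.34 in Smo-KO livers 1 to 4. For the 27 interferon gamma genes it was -0.32, 0.26, 0.20 and -0.14 in control and -0.60, -0.72, -0.14 and -0.70 in Smo-KO livers. Control 1 was the lowest control in both lists and lay below Smo-KO 3 in both, and below every Smo-KO liver in the type I list. For the 9 genes described, the same measure was -0.21, 0.23, 0.13 and -0.14 in control and -0.26, -0.55, -0.12 and -0.48 in Smo-KO livers.

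**Figure D5:**
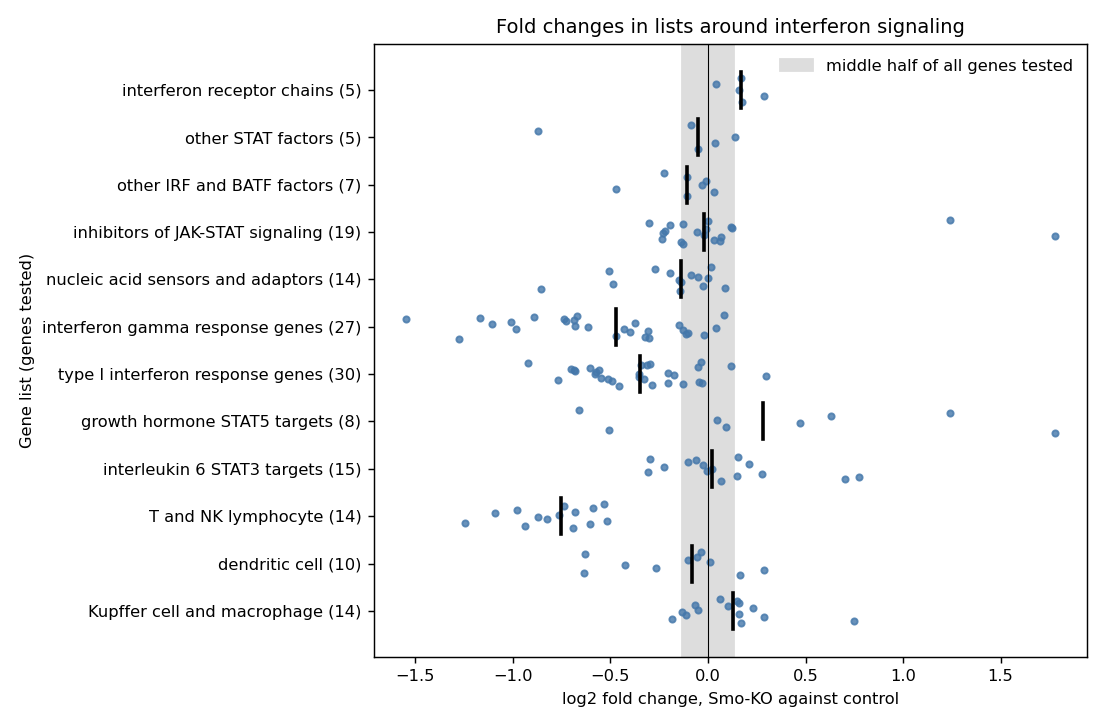
Log2 fold change of Smo-KO against control livers for each gene tested (points) in lists of pathway genes, response genes and cell type markers, with the median of each list (black bar) and the middle 50% of all genes tested (gray band). Interferon gamma response genes and T and NK lymphocyte markers lie mostly to the left of the band, with medians of -0.47 and -0.75.

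Sensors of nucleic acids and their adaptors, which start interferon production, had 12 of 14 genes with lower means and a median log2 fold change of -0.14, or -0.06 without control 2. Ticam1, the adaptor of TLR3, was lower at the unadjusted threshold (34.9 ± 5.15 and 24.9 ± 4.80 CPM, -0.49, SE 0.14). So was Tlr9, a sensor of CpG DNA (-0.85), whose unadjusted p exceeded 0.05 without control 2 (-0.71), control 3 (-0.64), Smo-KO 1 (-0.74), Smo-KO 3 (-0.82) or Smo-KO 4 (-0.68). By DESeq2 its unadjusted p was 0.0516. In edgeR neither gene passed after adjustment. DESeq2 did not call Ticam1 and gave Tlr9 no adjusted p.

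Markers of T and NK lymphocytes, the main sources of interferon gamma, moved with the groups. Their summed level, over 18 markers, was 115, 125, 102 and 137 CPM in control livers and 57.4, 52.1, 90.0 and 87.5 CPM in Smo-KO livers. The groups did not overlap, and the Smo-KO mean was 60.0% of the control mean. Means were lower for 17 of the 18 markers. All 14 with enough reads to be fitted were lower, beside 50.1% of all genes tested. At an unadjusted p under 0.05, 12 of them were lower, beside 7.15% of all genes. The markers were chosen with earlier results of these data known. The most abundant was Ccl5 (40.3 and 27.9 CPM), and none was at 0 in all libraries. With no filter on low counts, edgeR's quasi-likelihood test called Il2rb (Benjamini-Hochberg adjusted p = 0.0199). DESeq2 called Il2rb (10.5 ± 2.99 and 4.43 ± 1.04 CPM), Cd8a (9.87 ± 0.756 and 5.80 ± 1.09 CPM), Nkg7 (14.5 ± 3.09 and 7.59 ± 2.44 CPM) and Cd3e (8.20 ± 2.00 and 4.17 ± 1.60 CPM), beside 0.647% of all genes called lower. All 7 sinusoidal endothelial cell markers also had lower means, with a median log2 fold change of -0.26, and 1 of them was lower at an unadjusted p under 0.05. Their sum was 215 ± 20.7 CPM in control and 181 ± 56.4 CPM in Smo-KO livers (84.3%), with Smo-KO 1 above every control. In whole liver, fewer cells of a type and less RNA per cell cannot be told apart. The part of lymphocytes or endothelial cells in the levels of Irf1, Batf2, Socs1 and the interferon gamma genes was not tested.

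The genes whose levels most resembled the mean pattern of the 9 over all 8 livers, among 12931 candidates, were Zbp1 (r = 0.973), Gbp3 (0.972), Col4a1 (0.965), Lpcat2 (0.96), Dhx58 (0.957), Tubb5 (0.955), 4933412E12Rik (0.955) and Napepld (0.953). Zbp1 and Gbp3 belong to the type I and gamma response lists, and Dhx58 to the sensors. On deviations from the group means they were Synpo (0.978), Ptpn6 (0.973), Arhgap25 (0.966), 4933412E12Rik (0.966), Tlcd5 (0.966), Cdc25a (0.961), Gbp6 (0.960) and Dnmt3a (0.959). Ptpn6 belongs to the inhibitors and Gbp6 to the gamma response list. These are Pearson correlations over 8 livers of the same libraries, given as a description. With 8 livers and 12931 candidates, the highest values are large in part by selection. The level that unrelated genes would reach was not tested.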

How the data were processed

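Whole liver RNA of 8 mice (4 control, 4 Smo-KO, grouped by the vector in the labels) was sequenced on an Illumina NovaSeq from NEB Next Ultra libraries. The authors deposited 1 table of raw read counts per gene and library. The submitters' processing notes name fastp, STAR 2.7.5, featureCounts 2.0.1 and GRCm38. Annotation and strand setting are not given in the sources used here. The tables end with entries for reads on no feature and ambiguous reads in the form that htseq-count writes, so the counter, and with it how reads in shared exons were counted, is uncertain. These 5 entries, which name no gene, were left out of totals and tests. Reads on no feature made up 8.38, 9.32, 7.56 and 8.05% of the control tables and 8.99, 8.97, 9.68 and 9.26% of the Smo-KO tables. Every Smo-KO share thus exceeded those of controls 1, 3 and 4, and the part of this in the group differences was not tested. Ambiguous reads made up 2.45% to 2.61% of each table.

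Counts were fitted with edgeR 4.0.16 (limma 3.58.1, R 4.3.3): filterByExpr, TMM scaling and the quasi-likelihood F test over all 12977 genes that passed, with Benjamini-Hochberg adjustment and a threshold of 0.05. CPM was computed on TMM-scaled libraries, log2 CPM with a prior count of 2. The standard error of a log2 fold change is the one implied by the F statistic. Alternatives were DESeq2 1.42.0, other scalings and filters, a replicate block and leaving out each library, 14 in all. On data simulated from these libraries for this comparison (3 runs, median 12877 genes tested), the edgeR test at an adjusted p under 0.05 recovered 56.7% of changes of 1.5-fold, 84.1% of 2-fold and 97.5% of 3-fold, with 7.03% false calls. The simulated counts were drawn independently for each gene, with a set number of planted changes. These shares need not hold for the measured libraries, in which the same test called 0 genes. Smo was compared over the 70 assignments of 8 livers. Exon lengths and coordinates came from the GRCm38 annotation (GENCODE) and promoters from RefSeq.

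The genes and lists were chosen with earlier results of these data known. The genes named are the 9, Smo, genes of the lists and the 8 most like the mean pattern of the 9 with a mean of at least 1 CPM. Some results are not reported here. A list is described by counts and medians, without a set test. P-values of the fits set the difference between groups against the spread between the 4 mice of a group. That spread is estimated with information shared across genes.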

Additional observations from a re-analysis of the deposited data

Results flagged for a closer look

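In groups of 4 mice, a liver was looked at again where its distance to the nearest other liver took up most of the range of its group (above Dixon's 95% critical value). Of 126 groups examined, 8 met this, where chance would give 6.3. The 126 covered the 9 genes, Smo, the list genes named, the cell type marker sums and the reads per library. They also covered the mean differences of the interferon gamma and type I lists. No marker sum or list mean was among the 8. Igtp was at 177 CPM in Smo-KO 3 (88.2 to 98.3 CPM in the other Smo-KO livers), Tgtp1 at 57.9 CPM (26.4 to 30.2), Ifit1 at 82.4 CPM (33.1 to 38.9) and Socs2 at 71.6 CPM (11.0 to 13.7) in the same liver. The same library was the shallowest of its group, with 8203299 reads, while the others held 9367795 to 9543675. Without it the log2 fold change was -1.40 for Igtp, -1.60 for Tgtp1, -1.10 for Ifit1 and 0.66 for Socs2, against -1.11, -1.28, -0.70 and 1.78 with all livers. Ifit1 was at -0.19 without control 2. Among controls, control 3 held 93.1 CPM of Ifngr1 (76.2 to 77.9 in the others) and 1928 CPM of B2m (2048 to 2067), and control 1 held 11.0 CPM of Cd8a (9.44 to 9.54).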

How the results depend on the processing

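With all 8 livers and the filter on low counts, edgeR called 0 genes at an adjusted p of 0.05. The number was 61 with no filter, 163 by DESeq2 and between 0 and 78 when 1 library was left out (5 without control 1, 78 without Smo-KO 1, 4 without Smo-KO 3). At an unadjusted p under 0.05 it was 1797 and between 1244 and 2332. Smo was lower under every alternative, with an edgeR adjusted p of 0.0385 with no filter (log2 fold change -0.88), 0.0266 without Smo-KO 1 (-0.997) and a DESeq2 adjusted p of 0.00613 (-0.87). Its value ranged from -0.997 to -0.81 when 1 library was left out. The number of type I response genes lower at the unadjusted threshold was 4, and it was 10 with no filter, 1 by DESeq2 and between 1 and 16 when 1 library was left out. For the interferon gamma list, alternatives gave between 14 and 21. These list counts and the alternatives for the list genes named were chosen after seeing the data. The median of all genes stayed between -0.007 and 0.006. The sign of Stat2, Jak2 and Ifngr1 turned under some left-out libraries, as given above, and that of the other 6 genes did not. The causes were not tested.

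The labels number the mice 1 to 4 in each group. The deviations of same-numbered livers correlated at r = 0.104, 0.187, 0.0611 and 0.113. Controls 2, 3 and 4 each correlated best with the Smo-KO liver of the same number, but control 1 with Smo-KO 4 (0.157). As control 1 did not follow the numbers and all values were low, the numbers were not taken as pairs. With a replicate block the fit called 8 genes at an adjusted p under 0.05 and 2115 at the unadjusted threshold, 20 interferon gamma and 5 type I genes were lower at the latter, Igtp and Tgtp1 passed the adjusted one (0.0243 and 0.0457), Smo was at -0.89 (edgeR adjusted p = 0.0722), and the median of the 9 genes was -0.13.

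With 22 to 38 reads of Batf2 and 24 to 43 of Socs1 in a Smo-KO library, counting error limits the precision of both. Interferon transcripts were too few for a comparison. Whole liver RNA does not say which cells carried a transcript, and 4 mice per group give wide intervals for single genes.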

Other observations

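JAK2 and the STATs also serve receptors other than those of the interferons. Of 8 growth hormone and STAT5 target genes tested, 6 had higher means in Smo-KO livers and 4 were higher at an unadjusted p under 0.05 (Socs2, Cish, Igf1 and Egfr), with a median log2 fold change of 0.28 (0.20 without Smo-KO 3, 0.42 without control 1). Igf1, the circulating growth factor that the liver makes under growth hormone, averaged 469.8 ± 99.2 and 652.7 ± 162 CPM (0.47, SE 0.18), and Egfr 103 ± 22.2 and 160 ± 68.9 CPM (0.63, SE 0.26). Prlr, the prolactin receptor, was lower at that threshold (63.8 ± 14.4 and 44.8 ± 15.4 CPM, -0.51, SE 0.22). Single livers decided some of these calls. The unadjusted p exceeded 0.05 for Igf1 without control 2 (0.35) or Smo-KO 3 (0.31), for Egfr without control 2 (0.57), control 4 (0.54), Smo-KO 2 (0.40) or Smo-KO 3 (0.49) and by DESeq2, and for Prlr without control 1 (-0.34), Smo-KO 2 (-0.43) or Smo-KO 3 (-0.33). At an adjusted p of 0.05, with all livers, edgeR's quasi-likelihood test called none of the 8 and DESeq2 none of the other 7, since it gave Socs2 no adjusted p.

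Among 15 genes of the interleukin 6 and STAT3 acute phase response, 8 had higher and 7 lower means, with a median log2 fold change of 0.02 (-0.01 to 0.08 over the alternatives). Lcn2, an iron-scavenging acute phase protein, averaged 796 ± 102 and 964 ± 44.7 CPM (0.28, SE 0.10) and Saa1 170 ± 43.4 and 291 ± 180 CPM (0.77, SE 0.33), both higher at the unadjusted threshold. Fga, a fibrinogen chain, was lower at it (1872 ± 103 and 1526 ± 286 CPM, -0.30, SE 0.12). The call of Lcn2 held without each single library. That of Saa1 was lost without control 1, control 3, control 4, Smo-KO 2 or Smo-KO 4, with log2 fold changes of 0.71, 0.69, 0.77, 0.29 and 0.76, and by DESeq2, and that of Fga without control 2 (-0.26), Smo-KO 1 (-0.29), Smo-KO 3 (-0.23) or Smo-KO 4 (-0.24). Neither tool called any of the 15 after adjustment.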
